A study of Mus musculus with 7 samples.

Results

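The 91 potassium channel genes of the count table are described here in injured mouse retina, among 25655 gene rows in all. They are the rows whose symbol starts with Kcn, then further letters and a number. Kcnj8 and Kcnj10, a mural cell channel and the main inward rectifier of Müller glia, were left out, and 93 rows carry such a symbol with them. The rule used names alone and no measured value, but it was set with earlier results of these data known. The study sequenced poly(A)-selected RNA of whole retinas from wild-type C57BL/6 mice, collected 2 days after optic nerve crush, which cuts off the axons of retinal ganglion cells. One group had received AAV2, an adeno-associated viral vector, that overexpresses Tppp3, a gene of a tubulin polymerization-promoting protein, and the other a control AAV2, named CMV-control-AAV2 in the labels' protocols. Every retina was injured and every retina had received a vector, so no group shows the uninjured or untreated level. Age, sex and pooling of animals, and the promoter that drives Tppp3, are not given in the labels. By Y-linked counts, control replicate 1 and Tppp3 replicate 2 were called male and the other libraries were not. The comparison rested on 3 control and 3 Tppp3 libraries, and asked which transcripts differ in the injured retina with Tppp3 overexpression.

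Potassium channels let potassium leave the cell and so set the resting potential, end action potentials and shape the graded responses of retinal neurons. Most pores are built from 4 subunits, whose mixture fixes the voltage range and speed of the current. In photoreceptors, the silent subunit Kv8.2 (Kcnv2) takes part in an outward current of the inner segment, and loss of human KCNV2 causes a cone dystrophy with supernormal rod responses. Ganglion cells fire action potentials and rely on Kv1, Kv3, KCNQ and calcium-activated channels, while the pigment epithelium behind the retina uses Kir7.1 (Kcnj13).

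Levels are CPM, read counts divided by library sizes that TMM adjusted, which corrects for library composition. Depth ranged from 10961443 to 21843892 counts, and the 3 Tppp3 libraries were the deepest. Tppp3 itself was at 18.7, 22.2 and 28.02 CPM in the controls and at 53.7, 36.5 and 41.8 CPM with its vector, and reads of the native gene and the vector were not separated. The log2 fold change of Tppp3 was 0.94, and it did not pass edgeR's quasi-likelihood test, the main test used below (adjusted p = 0.639). It passed the Wald test of DESeq2 (adjusted p = 1.33e-05). Markers of rods, cones, bipolar, amacrine, horizontal and ganglion cells and Müller glia were all present. The 7 rod markers summed to 53217 to 60059 CPM in the controls and 46558 to 55608 with Tppp3. The 9 ganglion cell markers summed to 728 to 740 and 669 to 794 CPM. In whole tissue, fewer cells of a type and less RNA per cell cannot be told apart.

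Of the 91 genes, 68 had enough counts to be tested and 23 did not. The summed level of all 91 was 5694, 6117 and 5664 CPM in control replicates 1, 2 and 3 and 5714, 5545 and 6404 CPM in Tppp3 replicates 1, 2 and 3, and the groups overlapped. Among the subfamilies, Kcnj, the inward rectifiers, summed to 751 ± 5.24 CPM in the controls and 745 ± 58.6 with Tppp3 (SD, n = 3 per group, as for all later SDs). Kcnv summed to 580 ± 40.9 and 565 ± 103 CPM. The least abundant was Kcnu, with Kcnu1 as its 1 gene, at 1.72 ± 0.744 and 2.25 ± 0.309 CPM.

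**Figure D1:**
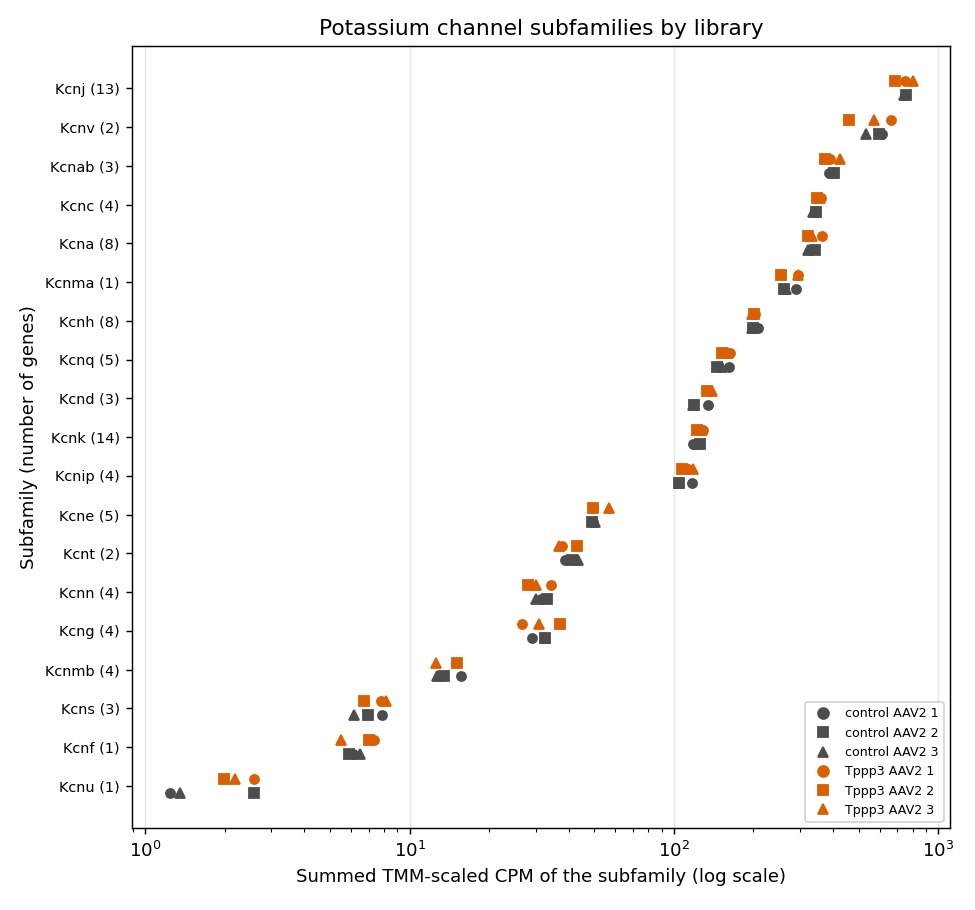
Summed TMM-scaled CPM of 19 of the 20 potassium channel subfamilies (log axis, number of genes in brackets), with 1 point for each of the 3 control AAV2 and 3 Tppp3 AAV2 libraries. The points of both groups lie on or near each other in each subfamily, from Kcnu near 2 CPM to Kcnj at 686 to 804 CPM.

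Of the 20 subfamilies, 1 had sums that did not overlap between the groups. Among single tested genes, 13.9% had groups that did not overlap, so 1 such subfamily does not stand out. The 4 Kcnc genes, the fast Kv3 channels of rapidly firing neurons, summed to 345, 344 and 336 CPM in the controls and to 360, 348 and 356 CPM with Tppp3, a ratio of group means of 1.04. The ratio lay between 0.954 (Kcnt) and 1.10 (Kcnd) in every subfamily other than Kcnu, where it was 1.31 on counts of 14 to 51 per library. These sums are given without a test.

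Longer transcripts gather more counts, so levels are compared between genes only per length, as TPM, a share of all counts per exon length, with the exon length of each gene in GENCODE M21. On that scale Kcnj14, which encodes the inward rectifier Kir2.4, was at 837 TPM (range over the 6 libraries 777 to 890) and Kcnv2 at 472. Kcnab2, a cytosolic Kv beta subunit, was at 230, and Kcna5, Kcnj9 and Kcne2 at 145, 129 and 113 TPM. The order of Kcnv2 and these 4 genes was the same with the longest transcript as the length. Kcna5, a Kv1 channel that was named after its rank was seen, ranged from 133 to 165 TPM and overlapped Kcnj9 (120 to 138), which in turn overlapped Kcne2 (108 to 127).

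No potassium channel gene differed between the groups at an adjusted p under 0.05 in edgeR's quasi-likelihood test (0 of 68, against 0.0136% of all 14750 tested genes). The smallest adjusted p among the 68 was 0.666. At an unadjusted p under 0.05 the test gave 4 members, 3 higher (Kcna2, Kcnip4 and Kcnab3) and 1 lower (Kcnn4). That is 5.88% of the members, against 7.23% of all tested genes (3.67% higher and 3.55% lower). With the Wald test of DESeq2, 0 members passed at either threshold, against 4.16% of all genes at the unadjusted one. With limma's voom 0 passed adjusted and 5 unadjusted (7.35%, against 8.43% of all genes). In 9 members (13.2%) the groups did not overlap, 6 higher and 3 lower, against 13.9% of all tested genes (6.92% higher and 7.02% lower). In edgeR's main fit, the shares at an unadjusted p under 0.05 and without overlap lay near or under those of all genes. Without control replicate 1, 9 members passed at an unadjusted p under 0.05, 12.7% of those fitted against 7.48% of all genes.

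Signs leaned to the positive side by a small amount. Of the 68, 47 had a positive log2 fold change (69.1%, against 50.9% of all tested genes), and the median was 0.062 against 0.0030 over all tested genes. The median kept its sign in each alternative analysis, between 0.040 and 0.075. It was lowest when the fit included the level of pigment epithelium markers, with 41 positive and 27 negative members. Marker lists also leaned: all 7 rod markers had a negative log2 fold change, and all 5 Müller glia markers, all 9 tested pigment epithelium markers and 6 of 7 bipolar cell markers a positive one, none past the adjusted threshold. Their part in the signs of the potassium channel genes was not tested. The spread of the list was wide on both sides, from -0.87 for Kcnn4 to 0.72 for Kcnk4, both at counts of 9 to 39 per library.

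**Figure D2:**
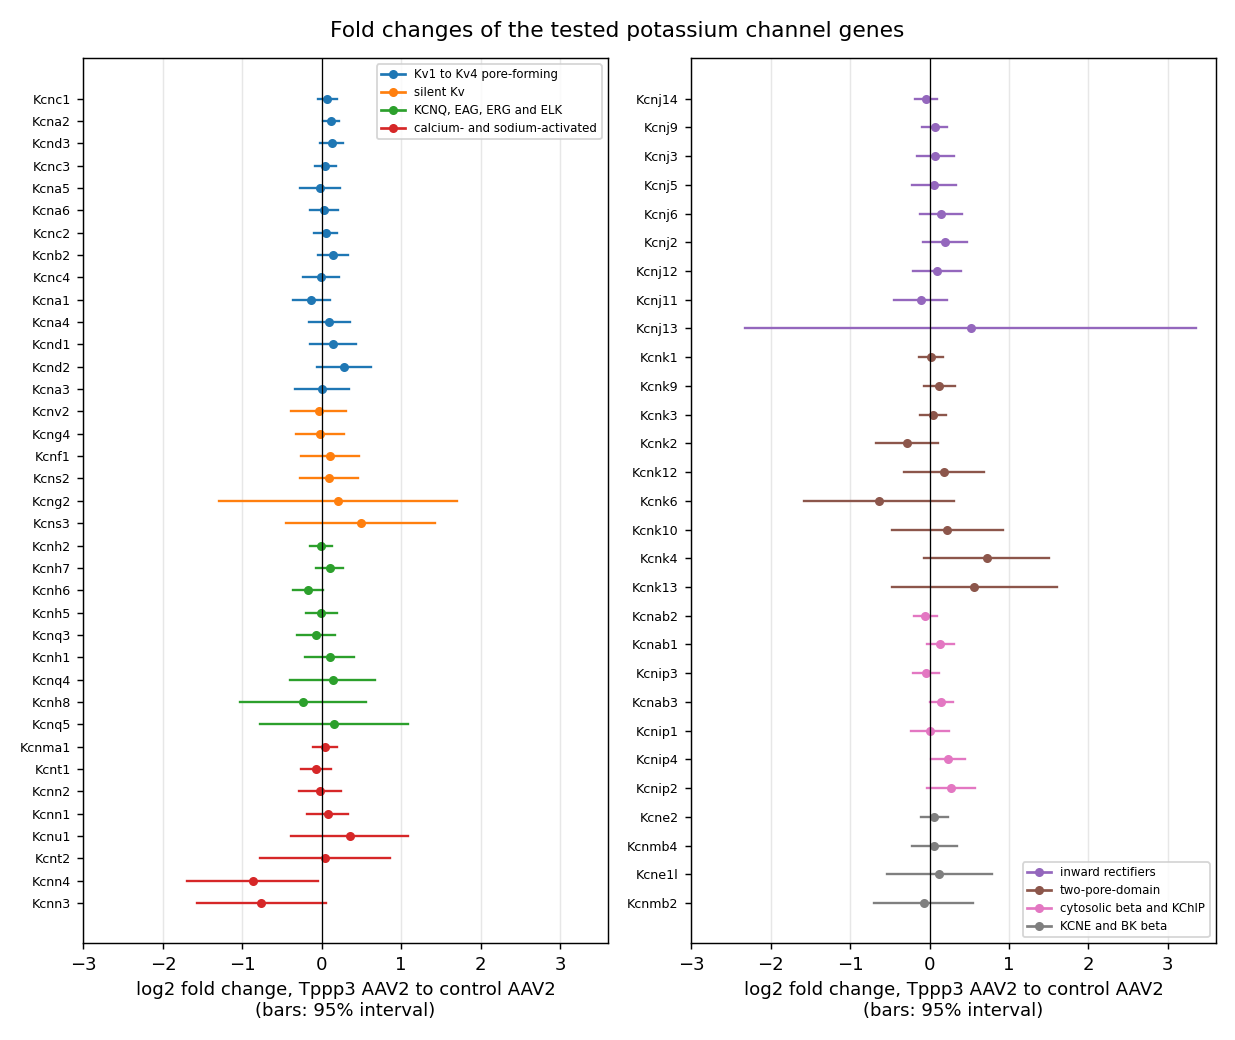
The log2 fold change of 66 of the 68 tested genes, Tppp3 AAV2 to control AAV2, with its 95% interval from edgeR's fit, coloured by class and ordered by level within each class. Intervals are narrow for abundant genes and wide for scarce ones, and those of Kcna2, Kcnip4, Kcnab3 and Kcnn4 leave out 0.

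The libraries bounded the size of a difference well for the abundant genes. All 43 members with a mean of at least 10 CPM had a 95% interval of the fold change that lay within 1.5-fold in either direction. Of the 25 scarcer tested members, 6 did. The widest interval among the 43 reached up to 1.39-fold for Kcnj2, an inward rectifier, and down to 0.767-fold for Kcnv2. The within-group coefficient of variation of these 43 had a median of 8.05%, from 1.94% for Kcna2 to 15.3% for Kcnh1, an EAG channel.

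Among the pore-forming Kv1 to Kv4 genes, 15 of 17 were tested, of which 12 had a positive and 3 a negative fold change (median log2 0.049), and 0 passed the adjusted threshold. Kcna2, a Kv1 subunit of axons, was at 122.7, 117.7 and 116.6 CPM in the controls and 128.7, 128.9 and 129.3 CPM with Tppp3. Each Tppp3 library was above each control, at a difference of 0.12 ± 0.046 on the log2 scale (edgeR's test, unadjusted p = 0.0287, adjusted p = 0.666). Its fold had a 95% interval of 1.01 to 1.16.

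The control mean of Kcnc1 (Kv3.1) was 174 ± 6.52 CPM, and the Tppp3 mean was 183 ± 9.65 CPM. Kcnd3 and Kcnd2, pores of the transient A-type current, had log2 fold changes of 0.12 ± 0.063 and 0.28 ± 0.16 (SE; edgeR's test, adjusted p = 0.730 and 0.757). Kcnd3 was at 113.7, 96.7 and 100.2 CPM in the controls and 111.2, 111.1 and 115.7 CPM with Tppp3, so that control replicate 1 lay among the Tppp3 libraries. Without control replicate 1 its log2 fold change was 0.19, and without control replicate 2 it was 0.075. That of Kcnd2 spanned 0.22 to 0.40 over the fits that each leave out 1 library.

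Silent Kv subunits form no channel alone and modify the pores that they join. Of 10 such genes 6 were tested and 0 passed. Kcnv2 was at 610, 595 and 533 CPM in the controls and at 663, 458 and 570 CPM with Tppp3, where it was both highest (replicate 1) and lowest (replicate 2) of all libraries. Its log2 fold change was -0.039 ± 0.14 (SE). The rod marker sum was also lowest in Tppp3 replicate 2 (46558 CPM), and its part in the Kcnv2 level was not tested. Kcng4 averaged 30.2 ± 2.08 and 29.8 ± 5.81 CPM, and Kcnf1 and Kcns2 averaged 6.17 ± 0.309 and 6.06 ± 0.662 CPM in the controls and 6.62 ± 0.974 and 6.46 ± 0.676 CPM with Tppp3.

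**Figure D3:**
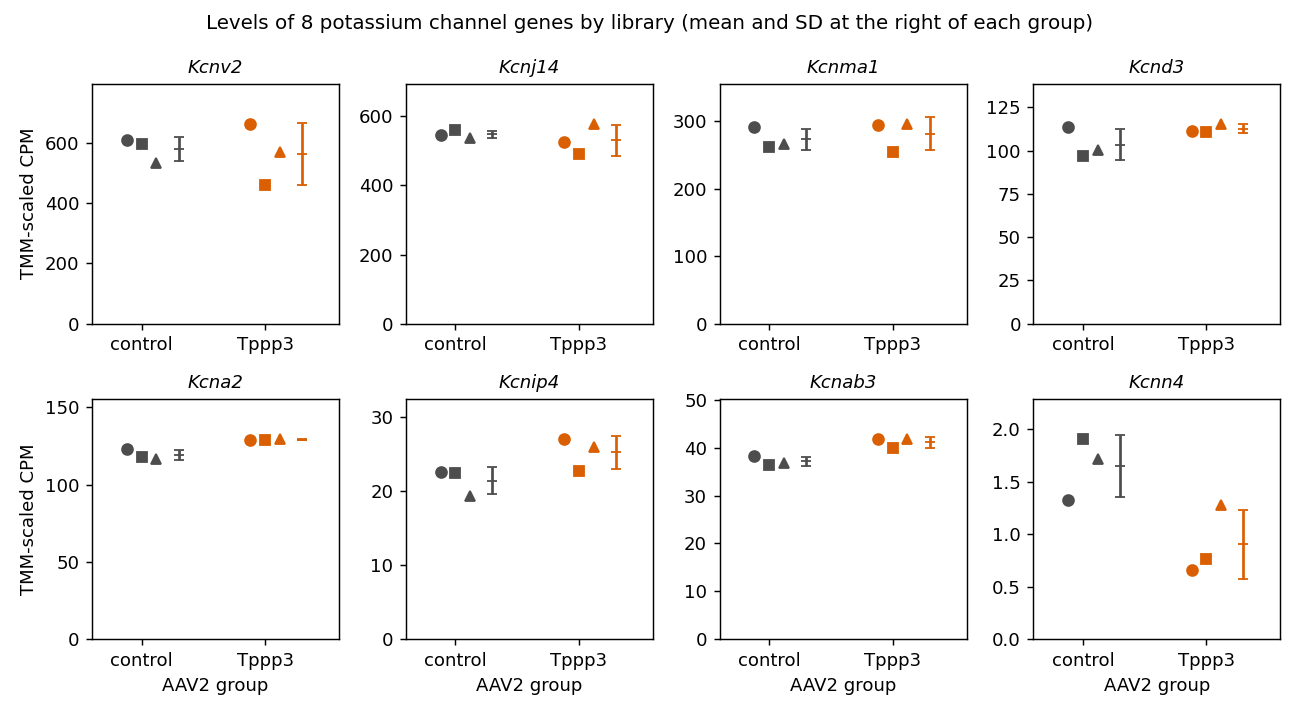
TMM-scaled CPM of 8 potassium channel genes in each of the 3 control and 3 Tppp3 libraries (circle, square and triangle for replicates 1, 2 and 3), with the mean and SD of each group beside the points. The groups overlap for Kcnv2, Kcnj14, Kcnma1 and Kcnd3, and do not for Kcna2, Kcnip4, Kcnab3 and Kcnn4, none of which passed the adjusted test.

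Several Kcnq genes, though not Kcnq1, carry the M-current, which limits repeated firing, and the Kcnh genes encode the EAG, ERG and ELK channels. Of 13 such genes 10 were tested, 5 positive and 5 negative, and 0 passed. Kcnh2, the ERG channel also known from the heart, averaged 93.6 ± 6.87 and 92.8 ± 4.34 CPM. Kcnh6, another ERG channel, was at 33.1, 33.7 and 28.2 CPM in the controls and 26.8, 28.8 and 28.8 CPM with Tppp3. Its groups overlapped only through control replicate 3 (log2 fold change -0.17 ± 0.086, SE; edgeR's test, adjusted p = 0.728). Kcnh7 averaged 35.4 ± 2.40 and 37.8 ± 1.97 CPM.

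All 8 genes of channels opened by calcium or sodium, or by alkaline pH in the case of Kcnu1, were tested, and 0 passed. Kcnma1, the pore of the large-conductance BK channel, was at 291, 261 and 267 CPM in the controls and 294, 254 and 296 CPM with Tppp3. Kcnt1, a sodium-activated channel, averaged 39.5 ± 2.77 and 37.6 ± 3.44 CPM. The small-conductance channels Kcnn1 and Kcnn2 averaged 12.4 ± 0.759 and 16.1 ± 1.34 CPM in the controls, and 13.01 ± 1.25 and 16.0 ± 2.13 CPM with Tppp3.

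The remaining pair of the Kcnn subfamily was scarce and lower with Tppp3 in each library, without passing the adjusted test. Kcnn4, the intermediate-conductance channel of immune cells and microglia, was at 1.33, 1.91 and 1.72 CPM in the controls and at 0.660, 0.767 and 1.28 CPM with Tppp3. These rest on raw counts of 15, 31 and 19 against 13, 17 and 27 in the deeper Tppp3 libraries. The log2 fold change was -0.87 ± 0.37 (SE; edgeR's test, unadjusted p = 0.0392, adjusted p = 0.682). Kcnn3 was at 1.68, 1.23 and 1.54 CPM and at 1.17, 0.767 and 0.665 CPM (log2 fold change -0.76 ± 0.37; edgeR's test, adjusted p = 0.717). The 5 microglia markers were all tested and detected, and summed to 38.5, 69.6 and 68.9 CPM in the controls and 46.0, 81.5 and 36.8 CPM with Tppp3. Their part in the Kcnn4 level was not tested.

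Inward rectifiers pass potassium best near the resting potential. Of 13 genes 9 were tested, 7 positive and 2 negative, and 0 passed. Kcnj14 was at 547, 560 and 538 CPM in the controls and 525, 490 and 579 CPM with Tppp3 (log2 fold change -0.044 ± 0.063, SE). The controls lay close together and inside the range of the Tppp3 libraries. The G protein-gated channels Kcnj9, Kcnj3 and Kcnj5 averaged 128 ± 4.29, 16.7 ± 2.07 and 14.3 ± 1.97 CPM in the controls and 134 ± 13.1, 17.6 ± 0.101 and 14.8 ± 1.34 CPM with Tppp3. In the annotation used, exons of a long non-coding RNA on the opposite strand cover 31.1% of the exon bases of Kcnj3. The library kit does not mark strand, so the level of Kcnj3 is uncertain.

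Kcnj13 was the most variable tested member. It was at 5.57, 0.676 and 0.452 CPM in control replicates 1, 2 and 3 and at 4.01, 1.26 and 4.08 CPM in Tppp3 replicates 1, 2 and 3 (raw counts 63, 11 and 5 against 79, 28 and 86). Control replicate 1 and Tppp3 replicates 1 and 3 were high, and the groups overlapped. The log2 fold change was 0.52 ± 1.08 (SE), with a 95% interval of 0.201-fold to 10.2-fold. It was 2.41 without control replicate 1, 0.043 and 0.051 without control replicates 2 and 3, 0.29, 0.90 and 0.27 without Tppp3 replicates 1, 2 and 3, and -0.33 when the fit included the level of pigment epithelium markers.

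The same 3 libraries were high in most pigment epithelium markers. Best1, Mlana and Slc45a2, at no more than 0.950 CPM in any library, did not follow this pattern. Best1 was at 0.265, 0.246 and 0.633 CPM in the controls and 0.508, 0.451 and 0.142 CPM with Tppp3. Rpe65, the retinoid isomerase of the pigment epithelium, was at 19.4, 1.23 and 1.36 CPM in the controls and 14.2, 2.12 and 17.0 CPM with Tppp3. The 11 markers of that list, of which 9 were tested and none was at 0 in all libraries, summed to 570, 324 and 340 CPM in the controls and 551, 373 and 598 CPM with Tppp3. Rlbp1, which Müller glia also express, makes up 279 to 393 CPM of these sums. The fit with the pigment epithelium level tested only the group difference, so the part of these markers in the Kcnj13 level was not tested. Exons of Gigyf2 on the opposite strand cover 49.1% of the Kcnj13 exon bases. Gigyf2 was between 180 and 200.03 CPM in all 6 libraries. The part of Gigyf2 reads in the Kcnj13 level was not tested.

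**Figure D4:**
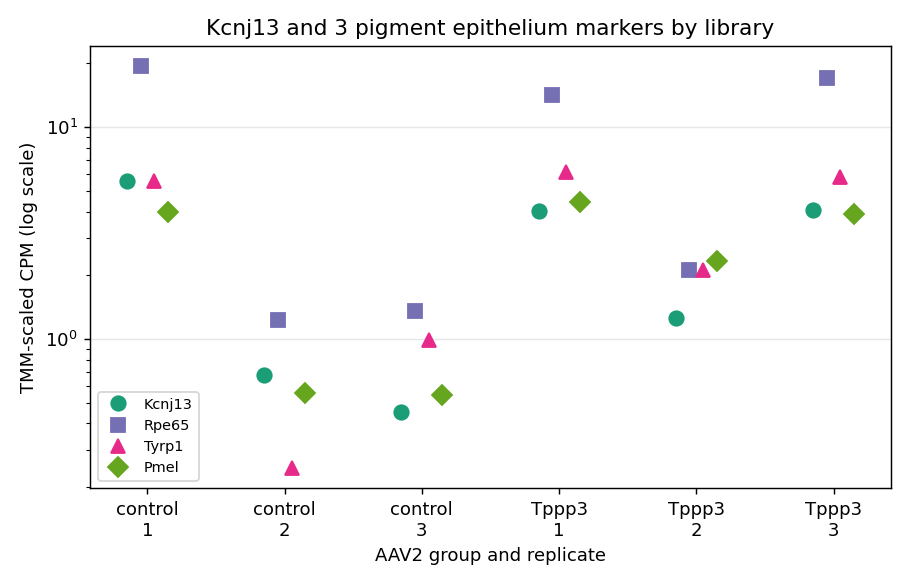
TMM-scaled CPM (log axis) of Kcnj13 and the pigment epithelium markers Rpe65, Tyrp1 and Pmel in each of the 6 libraries. All 4 genes are high in control replicate 1 and in Tppp3 replicates 1 and 3, and lower in the other 3 libraries.

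Two-pore-domain (K2P) channels give the background leak that holds the resting potential. Of 14 genes 9 were tested, 7 positive and 2 negative, and 0 passed. Kcnk1 (TWIK-1), Kcnk9 (TASK-3) and Kcnk3 (TASK-1) averaged 41.8 ± 2.33, 34.9 ± 3.80 and 30.1 ± 1.21 CPM in the controls and 42.4 ± 0.747, 38.1 ± 1.79 and 31.1 ± 1.17 CPM with Tppp3. The mechanosensitive channel genes Kcnk2 (TREK-1) and Kcnk4 (TRAAK) had groups that did not overlap, in opposite directions. Kcnk2 was at 4.95, 5.47 and 5.60 CPM in the controls and 4.27, 4.19 and 4.70 CPM with Tppp3 (log2 fold change -0.28 ± 0.18, SE; edgeR's test, adjusted p = 0.773). Kcnk4 was at 0.796, 0.983 and 0.904 CPM and at 1.52, 1.08 and 1.85 CPM (log2 fold change 0.72 ± 0.36; edgeR's test, adjusted p = 0.728). Kcnk4 shares 13.1% of its exon bases with Catsperz on the same strand, and Kcnk2 shares 12.2% with an antisense transcript on the opposite strand.

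Of the cytosolic subunits all 7 were tested, 5 positive and 2 negative, and 0 passed. These comprise the Kv beta subunits (Kcnab), which bind Kv1 channels, and the KChIPs (Kcnip), calcium sensors that bind Kv4 channels. Kcnip4 was at 22.5, 22.4 and 19.3 CPM in the controls and 27.0, 22.7 and 25.9 CPM with Tppp3. Tppp3 replicate 2 stood just above the highest control. Its log2 fold change was 0.23 ± 0.098 (SE; edgeR's test, unadjusted p = 0.0360, adjusted p = 0.673). Kcnab3 was at 38.2, 36.4 and 36.7 CPM and at 41.8, 39.8 and 41.7 CPM (log2 fold change 0.15 ± 0.065; edgeR's test, unadjusted p = 0.0431, adjusted p = 0.684).

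Kcnip2 was also higher in each Tppp3 library, at 7.58 ± 0.785 CPM in the controls and 9.17 ± 0.462 with Tppp3, with an edgeR adjusted p of 0.728. The more abundant Kcnab2, Kcnab1 and Kcnip3 overlapped between the groups, at 310 ± 8.64, 49.9 ± 1.91 and 46.5 ± 3.10 CPM in the controls and 299 ± 26.4, 54.8 ± 4.98 and 45.1 ± 2.74 CPM with Tppp3.

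Among single-pass and BK beta subunits, 4 of 9 were tested and 0 passed. Kcne2, a subunit with wide partners among Kv channels, was at 45.6, 46.3 and 46.5 CPM in the controls and 45.9, 44.7 and 53.9 CPM with Tppp3, with Tppp3 replicate 3 alone standing high. The BK beta subunits Kcnmb4 and Kcnmb2 averaged 11.1 ± 1.27 and 2.51 ± 0.285 CPM in the controls and 11.5 ± 1.06 and 2.38 ± 0.646 CPM with Tppp3. Exons of the antisense transcripts Kcnmb4os1 and Kcnmb4os2 cover 10.7% and 20.8% of the Kcnmb4 exon bases, so its level is uncertain as well. Kcne1l averaged 3.14 ± 0.752 and 3.38 ± 1.14 CPM.

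The 23 members that were not tested had at most 14 counts in any library and a mean of at most 0.486 CPM. Kcnj1, Kcnk7 and Kcnk16 had 0 counts in all 6 libraries, which allows a level of up to 0.0295 CPM over the libraries together (3 counts, counting error only). Kcnq1, an epithelial and cardiac channel, had 2, 2 and 7 counts in the controls and 8, 1 and 1 with Tppp3.

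Genes that work with potassium channels were counted from fixed lists. Of 22 partner genes (scaffolds, auxiliary proteins and regulators) 20 were tested, 16 positive and 4 negative (median log2 fold change 0.052), and 0 passed. Of all tested genes, 50.9% were positive. At an unadjusted p under 0.05 edgeR's test gave 3 of the 20, all higher, against 7.23% of all tested genes. The groups did not overlap in 4 higher and 3 lower partner genes, against 13.9% of all tested genes. The list as a whole was not tested. Amigo1, an adhesion protein that associates with Kv channels, was at 67.8, 68.3 and 68.8 CPM in the controls and 76.7, 74.5 and 77.3 CPM with Tppp3. The groups did not overlap (log2 fold change 0.16 ± 0.052, SE; edgeR's test, unadjusted p = 0.0118, adjusted p = 0.648). Nedd4l, a ubiquitin ligase that acts on KCNQ and other channels, had a log2 fold change of 0.14 ± 0.056 (edgeR's test, unadjusted p = 0.0257, adjusted p = 0.661).

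Of 15 genes of the sodium pump and of cation-coupled potassium transporters 13 were tested, 10 positive and 3 negative, and 0 passed in edgeR's test, with 0 at an unadjusted p under 0.05. Slc24a2, a sodium, calcium and potassium exchanger, had a log2 fold change of 0.074 ± 0.054 (SE). Of the 4 HCN channels, which conduct both sodium and potassium, all were tested, 3 positive and 1 negative, and 0 passed. Hcn4 and Hcn2 had log2 fold changes of 0.14 ± 0.077 and -0.14 ± 0.12 (SE). Kcnj10 and Kcnj8, the Kir genes left out of the 91, averaged 80.1 and 2.78 CPM in the controls and 85.1 and 2.65 CPM with Tppp3, and both overlapped between the groups.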

How the data were processed

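Per the file headers, the authors deposited raw total counts per gene symbol, not normalized. The submitters' processing notes name the build GRCm39 (mm39); how reads were aligned and counted, and whether by strand, is not given in the sources used here. Each count column was used whose name matched a sample title; 1 column, whose name gives it as one more Tppp3 library, matched no sample and was not used, and the fourth control sample is not analysed here. The labels' protocols and the column names give 4 Tppp3 and 3 control retinas, the sample labels the reverse, so only the 6 libraries named in both were compared. They do not say whether each library came from a separate animal, so p-values measure the spread between these libraries.

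The members and lists were chosen with earlier results of these data known. Of 25655 rows, 14750 passed edgeR's filter by group. Group effects were tested with edgeR 4.0.16 (R 4.3.3), TMM and robust quasi-likelihood F tests, two-sided, with Benjamini-Hochberg adjustment over all tested genes at 0.05. Standard errors and 95% intervals came from the fold change, the F statistic and its degrees of freedom. The common biological coefficient of variation was 11.9%. TPM used exon lengths of GENCODE M21, of build GRCm38, which held all 91 members, so no coordinates are printed. Library depth was 10961443 to 21843892 counts, and floors and intervals of counts cover counting error only.

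Named genes were the 4 of highest mean CPM in each class, the 10 of smallest p, and Kcnv2, Kcnj13, Kcnj14, Kcnma1 and Kcnq1; from the other lists, the 2 of smallest p. Others were named after their values were seen, and some genes of the rule are not reported here. Alternatives were DESeq2 1.42.0 size factors and Wald test, limma 3.58.1 voom with quality weights, other filters, leaving out each library and the replicate number as a block. Thinning to equal depth (10961443 counts), sex from Y-linked counts and the pigment epithelium level as covariates were added after seeing the data. On simulated counts of this comparison (14623 genes fitted), 68% of 50 genes changed 1.5-fold and 74% of 50 changed 2-fold were recovered. In the same run 50 genes each were changed 3-fold and 4-fold, and 16 of 14426 unchanged ones were called. Recovery in the measured counts, where 2 of 14750 genes were called, was not tested. Chi-square statistics per gene of 3.99 to 13.4 showed no pair within a group to be one library deposited under both names. Pairs across the groups were not compared in this way. Figures were drawn with matplotlib 3.10.9.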

Additional observations from a re-analysis of the deposited data

How the results depend on the processing

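Members past the adjusted threshold numbered 0 under every alternative run, and the smallest adjusted p of any member was 0.470 in any of them. Leaving out single libraries gave a median of the members between 0.042 and 0.075 (log2). Members at an unadjusted p under 0.05 numbered 0 with DESeq2's Wald test (against 4.16% of all genes) and 2 after thinning to equal depth (3.03% against 7.13%). Without single libraries they numbered 1 to 9: 9 when control replicate 1 was left out (12.7% of the members fitted, against 7.48% of all genes fitted), 1 for control replicate 3 (1.43% against 5.25%), 2 for Tppp3 replicate 1 (2.94% against 5.60%) and 1 for Tppp3 replicate 3 (1.47% against 5.16%). Members whose groups did not overlap numbered 13 to 20 with a library left out, where fewer samples make separation easier: leaving out control replicates 1, 2 and 3 in turn gave 19, 16 and 16 (26.8%, 22.5% and 22.9%, against 26.1%, 23.1% and 23.0% of all genes), and Tppp3 replicates 2 and 3 gave 20 and 14 (29.4% and 20.6%, against 26.7% and 21.9%). All genes called, 2 in the main test, numbered 6 without the low-count filter, 14 with DESeq2's Wald test, 1 with limma's voom, 0 with sex as a covariate, and 0 to 3 with a library left out. The replicate numbers do not pair the libraries (correlations of same-numbered deviations -0.029, 0.051 and -0.26), and the replicate block gave 1 gene called, 0 of them members.

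Of 37 named members, 18 kept their sign under every alternative. Over the fits that each leave out 1 library, the log2 value spanned -0.18 to 0.090 for Kcnv2, -0.11 to 0.011 for Kcnj14, -0.12 to 0.0096 for Kcnab2, -0.055 to 0.047 for Kcnh2, -0.18 to 0.0998 for Kcng4, -0.14 to 0.057 for Kcnn2, -0.0015 to 0.17 for Kcnj3, -0.021 to 0.17 for Kcnj5, -0.019 to 0.062 for Kcnk1, -0.096 to 0.00033 for Kcnip3, -0.029 to 0.11 for Kcne2, -0.013 to 0.14 for Kcnmb4, -0.28 to 0.11 for Kcnmb2 and -0.16 to 0.34 for Kcne1l. After thinning to equal depth Kcnj3 stood at -0.0035, Kcnk1 at -0.017, Kcnmb4 at -0.036 and Kcnmb2 at 0.099. With voom Kcnh2 stood at 0.0049. With the pigment epithelium covariate Kcng4 stood at 0.13, Kcns2 at -0.043, Kcnma1 at -0.049, Kcnt1 at 0.032, Kcnn1 at -0.027, Kcnj3 at -0.0072 and Kcnj13 at -0.33. The cause of these changes was not tested. Of the 25 tested members under 10 CPM, 19 have intervals that reach past 1.5-fold. The within-group coefficient of variation of Kcnj13 was 98.6%, where counting alone gives 24.7%, and that of Kcnk4 was 19.8%, where counting alone gives 25.0%.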

Other observations

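2 scarce potassium channel genes, named after their values were seen, varied between libraries. Kcnk6, a two-pore-domain channel, was at 1.68, 3.32 and 4.61 CPM in control replicates 1, 2 and 3 and at 2.34, 2.75 and 1.09 CPM in Tppp3 replicates 1, 2 and 3 (log2 fold change -0.63, edgeR adjusted p = 0.792). Kcng2, a silent subunit, was at 0.530, 0.676 and 0.904 CPM and at 1.37, 0.135 and 0.950 CPM, with Tppp3 replicate 2 lowest. These rest on raw counts of 6, 11 and 10 in the controls and 27, 3 and 20 with Tppp3. The SD of Kcng2 was 0.188 CPM in the controls and 0.629 CPM with Tppp3. Kcnk6 was lowest in control replicate 1 and Tppp3 replicate 3, and the summed microglia markers were lowest in the same pair, at 38.5 and 36.8 CPM. The part of those cells in the Kcnk6 level was not tested.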
